A study of Homo sapiens with 6 samples.

Results

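Keratins are the intermediate filament proteins of epithelial cells. An acidic (type I) and a basic (type II) keratin pair to form each filament, so cells usually express members of both types together. Simple epithelia such as the intestinal lining are built mainly on KRT8 and KRT18, joined by KRT19 and, in differentiated intestinal cells, by KRT20. KRT15 is instead known as a keratin of the basal layer of stratified epithelia and of hair follicle stem cells.

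The 9 genes described here are KRT15 and a set picked as keratins of simple and intestinal epithelium. They are 6 type I genes (KRT10, KRT15, KRT18, KRT19, KRT20 and KRT23) and 3 type II genes (KRT7, KRT8 and KRT80). They were taken by symbol from a table of 60643 genes, in which each symbol occurred once. KRT15 was picked because it was a strong riser in the comparison described below, so its difference between the groups is given as a description without a test. The other 8 were picked as relatives by tissue of expression, although KRT10 is a keratin of the differentiating epidermis.

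The RNA came from HCT116, a line long grown from a human colorectal carcinoma, and all 6 libraries came from cells carrying a doxycycline-inducible short hairpin RNA against CAPG, an actin filament capping protein. The untreated group of 3 libraries carried the uninduced hairpin, and its genotype is labelled WT. The treated group of 3 libraries was labelled CAPG Knockdown and received doxycycline at 100 ng/µl, the unit the labels give, for 3 days. The descriptions name a single hairpin, shCAPG-2. The labels do not say whether the line is a clone or whether the replicates were separate cultures. The p-values therefore reflect the scatter of these 6 libraries alone, which may be technical. Libraries given doxycycline without the hairpin were not analysed here, and the effects of the drug and of the hairpin cannot be told apart.

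CAPG served as the check of the labels. Levels are in FPKM, fragments scaled by transcript length and by the size of the library. The mean of CAPG was 57.2 ± 3.75 FPKM in untreated and 8.73 ± 1.08 FPKM in treated libraries (SD, n = 3), which left 15.3% of its level. Its log2 change was -2.59 (limma adjusted p = 7.24e-06), and an exact two-sided permutation test gave p = 0.1, the smallest that 3 against 3 libraries allow. Depth, estimated from the smallest steps in single-exon genes, was 14100000 to 18000000 fragments per library. The summed FPKM of a library was between 521832 and 536037 in 5 libraries and 586911 in treated replicate 3, which lay at 109% of the mean total. All 8 pan-epithelial markers were expressed, EPCAM at 181 FPKM or more in every library. The labels give the tissue as Rectum. The colonic and intestinal markers were largely absent: 8 of 24 were listed at 0 in all libraries, including FABP1, ALPI and TFF3, and 3 (CA2, CDX2 and EPHB2) reached 1 FPKM. Of 9 fibroblast markers COL1A1 lay at 7.49 to 10.9 FPKM, COL1A2 and DCN were listed at 0 in all libraries, and no other passed 0.310 FPKM. Of 9 leukocyte markers CD68 lay at 1.57 to 4.48 FPKM and ITGAM at 0.113 to 1.05 FPKM, CD3E, CD3D and MS4A1 were listed at 0 in all libraries, and no other passed 0.503 FPKM. The part of these cell types in the results was not tested, and no endothelial marker passed 0.425 FPKM.

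Keratins resemble one another, and KRT8 and KRT18 have many processed copies in the genome, so the sequences were compared before the values were read. The paired stretch below is the 90-base coding window in which KRT15 is most like KRT19, its neighbour on chromosome 17. It is shown because KRT19 is far more abundant, and any read that fitted both genes could move the KRT15 value. Capitals mark the bases that differ, 7 of 90, which gives 92.2% identity. The window runs from base 641 to 730 of the KRT15 coding sequence and from base 563 to 652 of that of KRT19, counted from the start codon in GENCODE 29.
KRT15: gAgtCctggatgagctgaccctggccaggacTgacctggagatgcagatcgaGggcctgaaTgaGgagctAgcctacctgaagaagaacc
KRT19: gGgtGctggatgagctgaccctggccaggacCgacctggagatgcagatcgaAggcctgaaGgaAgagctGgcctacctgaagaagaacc

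The longest run of identical bases that KRT15 shared with KRT19 was 29 bases, which encodes part of the conserved start of the rod domain. It was 22 bases with KRT10 and 22 with KRT18. The basal keratins KRT14, KRT16 and KRT17 shared 47 bases with it. The longest run, 66 bases, was shared with KRT13, the next keratin gene along the chromosome, and lies at bases 544 to 609 of the KRT15 coding sequence. These are the identical stretches shared with KRT19 and KRT13.
KRT15 and KRT19: gaccgcctggcctcctacctggacaaggt
KRT15 and KRT13: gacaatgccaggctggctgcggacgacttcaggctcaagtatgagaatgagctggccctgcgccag

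Of the 1319 stretches of 50 bases in the KRT15 coding sequence, 17 (1.29%) occurred in a transcript of another gene, in each case KRT13, and none of its stretches of 100 bases did. The coding sequences of KRT10, KRT20 and KRT23 shared no stretch of 50 bases with another transcript read in the same direction. KRT7, KRT19 and KRT80 shared between 1.22% and 2.09%. KRT8 shared 45.6% of its stretches of 50 bases and KRT18 shared 38.8%. At 100 bases the shares were 8.37% for KRT8 and 0% for KRT18. This search did not cover overlaps on the opposite strand. There KRT23 shares 186 exonic bases with AC004231.1 (0 to 0.172 FPKM) and KRT7 shares 282 with KRT7-AS (0.0344 to 0.130 FPKM). Read length was not known, so the number of reads that such stretches could misplace was not estimated.

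The levels fell into 3 tiers. KRT8, KRT18 and KRT19 made up 96.4% to 97.9% of the summed FPKM of the 9 genes in every library, and KRT8 ranked between 98 and 121 among all genes of a library. KRT10, KRT15 and KRT23 lay between 3.32 and 38.6 FPKM. KRT7, KRT80 and KRT20 lay near or below 1 FPKM. FPKM is scaled by transcript length, but the length used for each gene was not stated, so levels of different genes compare only roughly. For KRT15 the annotated exons together span 7069 bases and the coding sequence 1368. The order KRT8, KRT18, KRT19, KRT10, KRT15, KRT23 was the same in both groups, and none of these neighbours overlapped within a group except KRT8 and KRT18 with doxycycline. KRT7 and KRT80 overlapped in both groups, and KRT20 overlapped KRT7 with doxycycline.

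**Figure D1:**
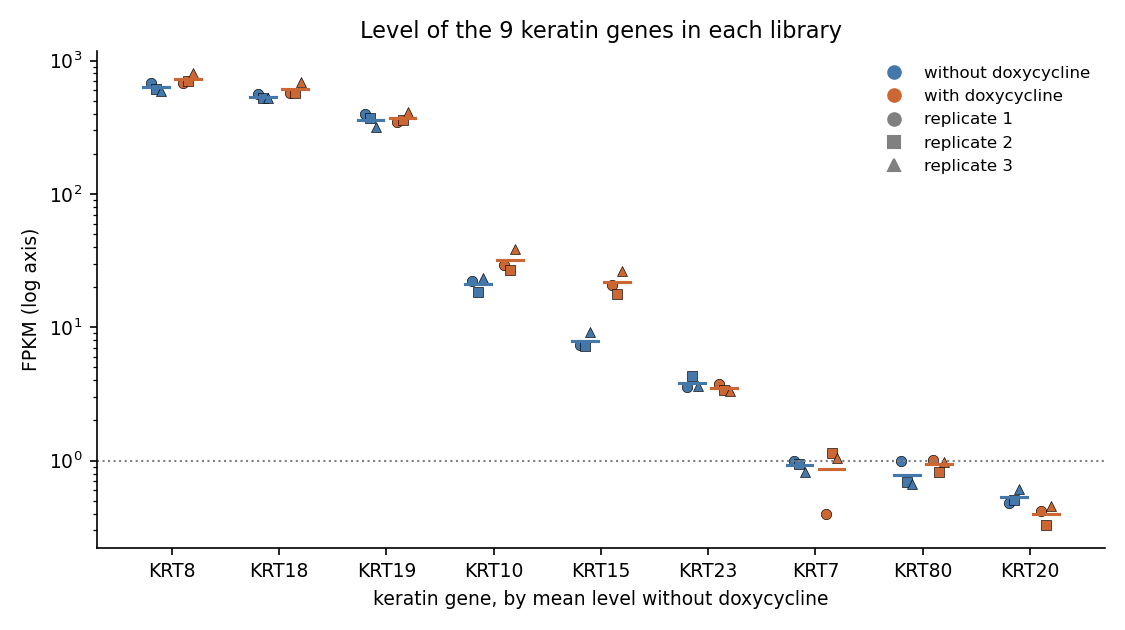
FPKM on a log axis for the 9 keratin genes, ordered by mean level without doxycycline, with a point per library, a bar at each group mean and a dotted line at 1 FPKM. KRT8, KRT18 and KRT19 lie above 319 FPKM in every library, and KRT15 lies between 7.20 and 9.24 FPKM without doxycycline and between 17.8 and 26.5 FPKM with it.

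KRT15 (ENSG00000171346, chromosome 17, 41513745 to 41522529, minus strand, GRCh38) was at 7.36, 7.20 and 9.24 FPKM in untreated replicates 1, 2 and 3 and at 20.8, 17.8 and 26.5 FPKM in the treated ones. The lowest treated library lay above the highest untreated library, and treated replicate 3 was the highest of all. The group means were 7.93 ± 1.13 and 21.7 ± 4.44 FPKM (SD, n = 3 each), a 2.74-fold difference. The log2 change was 1.33 on the log2(FPKM + 1) scale, as are all log2 changes below. Of 14475 tested genes 11, KRT15 included, had a log2 change at least that large, a place that follows from how KRT15 was chosen. Across the libraries KRT15 ranked between 8717 and 3437 among all genes. In bulk RNA, more cells expressing a gene and more RNA of it per cell cannot be told apart.

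KRT10 is a type I keratin of the differentiating layers of the epidermis. It was at 22.1, 18.5 and 23.2 FPKM without doxycycline and at 29.5, 27.1 and 38.6 FPKM with it. The groups did not overlap, and treated replicate 3 was again the highest. KRT10 rose by a log2 change of 0.54 (SE 0.14, limma adjusted p = 0.0417), from 21.3 ± 2.50 to 31.7 ± 6.06 FPKM (SD, n = 3 each). The call was lost in the fits without untreated replicate 1 (adjusted p = 0.087), 2 (0.143) or 3 (0.0658) and without treated replicate 1 (0.0657) or 3 (0.073), while the log2 change stayed between 0.40 and 0.65. TMEM99 lies on the opposite strand and shares 56 exonic bases (2.61%) with KRT10. Its values were 20.2, 19.5 and 20.7 FPKM without doxycycline and 13.8, 15.9 and 19.3 FPKM with it, so its groups did not overlap either, in the opposite direction (log2 change -0.30, limma adjusted p = 0.132).

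The promoter of KRT10 is shown because, with KRT15 set aside as chosen for its rise, KRT10 was the only member called. RefSeq promoters (GRCh38.p14) were matched for 3 of the 9 genes, KRT8, KRT10 and KRT20. The KRT10 sequence covers the 200 bases before its start, chr17:40822615-40822814, on the minus strand. Capitals mark a match to TATAAA, the TATA box, 29 bases before the start, and the overlapping matches to CATAAA and ATGCAAT, both read on either strand.
KRT10: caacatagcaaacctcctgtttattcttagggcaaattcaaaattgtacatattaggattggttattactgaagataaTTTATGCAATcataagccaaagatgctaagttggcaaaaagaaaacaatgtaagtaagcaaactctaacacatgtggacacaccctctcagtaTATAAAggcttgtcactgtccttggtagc

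The motifs were searched in 27305 promoters, all of one length, longer than the stretch shown and reaching past the start. TATAAA occurred in 12% and CATAAA, a core of the CDX binding motif, in 11%. ATGCAAT, found in composite C/EBP and ATF sites, occurred in 2.32%. The AP-1 motif TGANTCA occurred in 7.76% and GGGCGG, bound by SP and KLF factors, in 44.6%, and neither was present in the 3 keratin promoters. KRT20 carried CATAAA, 29 bases before its start, and no other of the 5 motifs. KRT8 carried none of the 5 in the promoter given for it.

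KRT8 and KRT18 form the main filament pair of simple epithelium. KRT8 was at 681, 615 and 589 FPKM without doxycycline and at 681, 699 and 802 FPKM with it. Untreated replicate 1 and treated replicate 1 differed by less than 0.1 FPKM, and the groups did not overlap by that margin. KRT8 did not pass the test (628 ± 47.2 and 727 ± 65.2 FPKM, log2 change 0.21, 95% interval 0.0038 to 0.42, limma adjusted p = 0.172). KRT18 was at 565, 523 and 520 FPKM without doxycycline and at 576, 570 and 694 FPKM with it. It did not pass either (536 ± 25.3 and 613 ± 69.9 FPKM, log2 change 0.19, 95% interval -0.02 to 0.40, limma adjusted p = 0.225). Treated replicate 3, the library with the largest summed FPKM, had the highest value of both genes. With each library scaled to the same total their groups still did not overlap.

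The KRT8 and KRT18 genes lie head to head on chromosome 12 and share 525 exonic bases on opposite strands in GENCODE 29. Whether counting used strand was not stated, so reads from that stretch could count for either gene. The table also listed 51 processed pseudogenes of KRT8 and 68 of KRT18. The KRT8 copies summed to between 77.1 and 108 FPKM, at most 13.8% of KRT8, and the KRT18 copies to between 6.83 and 8.48 FPKM, at most 1.5% of KRT18. KRT8P3, which held 26.6% of the 50-base stretches of KRT8, accounted for most of this. It stood at 65.3 ± 4.90 FPKM without doxycycline and 76.8 ± 8.61 FPKM with it (SD, n = 3 each, limma adjusted p = 0.167). How many of its reads came from KRT8 was not tested. The remaining copies that reached 1 FPKM in a library were KRT8P10, KRT8P12, KRT8P33, KRT8P45 and KRT8P51 and 6 copies of KRT18, none above 7.47 FPKM.

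KRT19, a small type I keratin of simple epithelium that lies next to KRT15, was at 394, 369 and 320 FPKM without doxycycline and at 346, 358 and 408 FPKM with it. The groups overlapped, and treated replicate 3 was again the highest. The means were 361 ± 37.9 and 370 ± 33.1 FPKM, with a log2 change of 0.039 (95% interval -0.19 to 0.27, limma adjusted p = 0.837), and the sign of this change turned with scaling to equal totals (log2 change -0.015). KRT23, a type I keratin with a reported presence in colorectal tumours, was at 3.54, 4.30 and 3.64 FPKM without doxycycline and at 3.76, 3.39 and 3.32 FPKM with it. Its groups overlapped as well (log2 change -0.10, 95% interval -0.35 to 0.15, limma adjusted p = 0.59).

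Of the 9 genes 6 entered the fit, which required 1 FPKM in at least 3 libraries, so the counts that follow do not cover all 9. KRT15 was chosen on this contrast and is left out of them. Of the other 5 members tested, KRT10 was called higher and 0 were called lower, where 8.46% of all tested genes were called, 3.69% as higher and 4.77% as lower. The groups did not overlap, with higher treated values, in 3 of these 5 (KRT8, KRT10 and KRT18), against 17% of all tested genes, and 34.5% of them in either direction. The median log2 change of the 5 was 0.19, where the median of all tested genes was -0.0026.

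**Figure D2:**
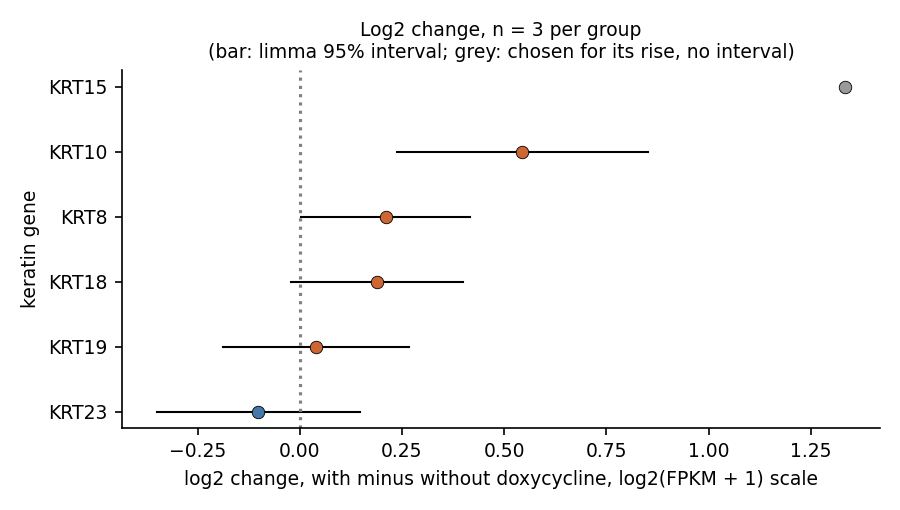
Log2 change with minus without doxycycline on the log2(FPKM + 1) scale for the 6 keratin genes that entered the fit, with the limma 95% interval as a bar; KRT15 is drawn without an interval because it was chosen for its rise. The interval of KRT10 lies above 0, that of KRT8 starts at 0.0038, and those of KRT18, KRT19 and KRT23 include 0.

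Ratios of genes within a library do not depend on how the libraries are scaled, and they are given without a test. Their size does depend on the length used for each gene, which was not stated. KRT15 amounted to 1.87%, 1.95% and 2.89% of KRT19 in the untreated libraries and to 6.01%, 4.97% and 6.50% in the treated ones. As a share of KRT10 it was 33.2%, 39.0% and 39.8% without doxycycline and 70.5%, 65.6% and 68.8% with it, and the groups did not overlap. KRT15 was chosen for its rise, so the separation in its ratios follows from that choice. KRT10 amounted to 5.62%, 5.00% and 7.27% of KRT19 without doxycycline and to 8.53%, 7.57% and 9.45% with it, again without overlap. The gap in this last ratio was narrow.

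The balance of the filament pair was close between the groups. The ratio of KRT8 to KRT18 was 1.20, 1.18 and 1.13 in the untreated libraries and 1.18, 1.23 and 1.16 in the treated ones, and the ranges overlapped. Summed over all 9 genes, type I exceeded type II by a ratio of 1.48 ± 0.0213 without doxycycline and 1.43 ± 0.0323 with it (SD, n = 3 each). The ranges overlapped only narrowly, with treated replicate 3 at 1.456 and untreated replicate 1 at 1.454. KRT15 made up 0.439% to 0.63% of the summed keratin FPKM without doxycycline and 1.06% to 1.34% with it. The 9 genes together took 0.281% to 0.313% of the library total without doxycycline and 0.313% to 0.336% with it.

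**Figure D3:**
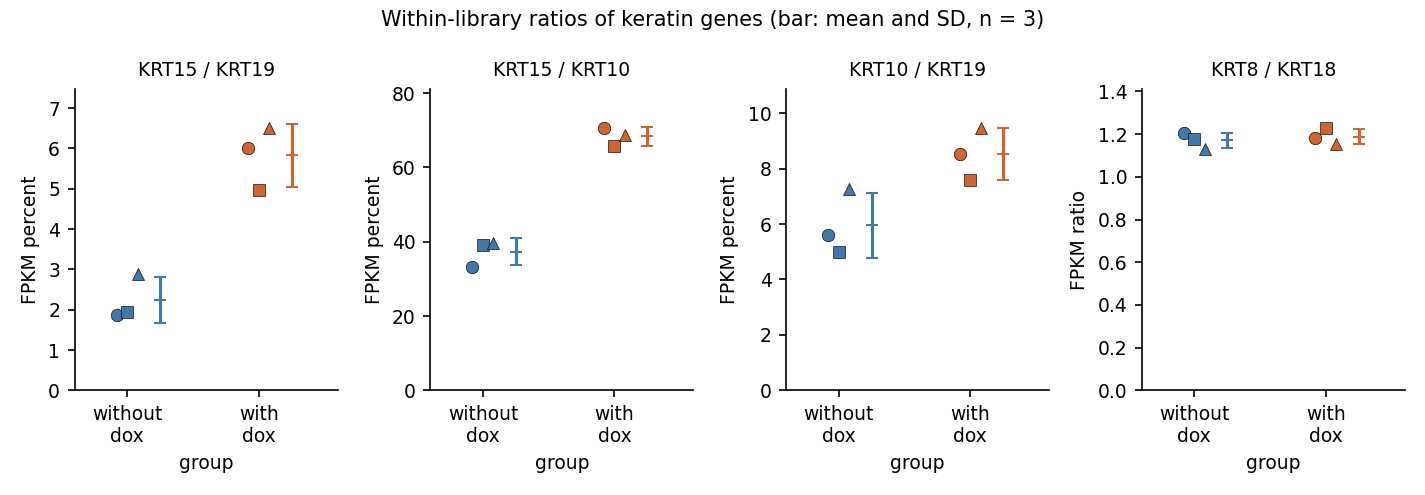
Within-library ratios of FPKM in 4 panels, with a point per library (circle, square and triangle for replicates 1, 2 and 3) and the mean with SD beside each group, all axes starting at 0. KRT15, chosen for its rise, separates the groups relative to KRT19 and to KRT10. KRT10 relative to KRT19 separates them narrowly, and KRT8 relative to KRT18 overlaps at 1.13 to 1.20 and 1.16 to 1.23.

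KRT7, KRT80 and KRT20 were too low to enter the fit. KRT7, a type II keratin of ductal and glandular epithelium, was at 0.998, 0.943 and 0.824 FPKM without doxycycline and at 0.40, 1.14 and 1.05 FPKM with it, so the treated libraries lay on both sides of the untreated ones. KRT80, a type II keratin found in many epithelia, was at 0.988, 0.697 and 0.666 FPKM and at 1.004, 0.824 and 0.983 FPKM, with overlapping groups. KRT20, the keratin of differentiated intestinal cells, was at 0.477, 0.511 and 0.611 FPKM without doxycycline and at 0.419, 0.328 and 0.456 FPKM with it. The treated values of KRT20 all lay below the untreated ones. Over its 1846 exonic bases, 3 fragments correspond to between 0.0903 and 0.115 FPKM at the estimated depths. In a fit with no filter on low values the log2 changes were -0.07 for KRT7, 0.12 for KRT80 and -0.13 for KRT20, with limma adjusted p of 0.892, 0.618 and 0.589.

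The other keratin genes were nearly silent. None of the 45 entered the fit, 14 were listed at 0 in all 6 libraries, and together they summed to between 2.69 and 4.58 FPKM per library. KRT13 was the only one to reach 1 FPKM, at 1.12, 1.08 and 0.603 FPKM without doxycycline and 0.472, 0.354 and 0.855 FPKM with it. The basal pair KRT5 and KRT14, with which KRT15 is found in stratified epithelium, lay at 0.0466 to 0.501 FPKM and at 0 to 0.193 FPKM. KRT16 and KRT17, keratins of stressed and wounded epithelium, did not pass 0.981 FPKM. Within 100 kb of KRT15 the table held 17 other genes, most of them keratins of the type I cluster. KRT19 was the only one of these to enter the fit. Around KRT80 the autophagy gene ATG101 was the only one of 16, at 26.7 ± 2.42 and 34.3 ± 5.64 FPKM (limma adjusted p = 0.105).

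The profiles most like that of KRT15 were sought among 14474 other tested genes, by the root mean square difference of the centred log2 values over the 6 libraries. DDIT3, which encodes the stress-induced transcription factor CHOP, was nearest with a difference of 0.20. It was at 16.5 FPKM in each untreated library and at 30.8, 33.5 and 42.0 FPKM in treated replicates 1, 2 and 3. RN7SKP80, a copy related to the 7SK RNA, followed at 0.24. It was listed at 0 in all untreated libraries and at 1.05, 1.05 and 1.08 FPKM in the treated ones, just above the filter. The pseudogene CHMP4BP1 came next at 0.25. These 2 could enter the fit only because of their treated libraries, so their places are no support. They can also share reads with related sequences. Among the keratins KRT10 was the closest, with a difference of 0.40 and 80th place, and KRT8 followed at 0.59 in place 2176. The measure is dominated by the size of the difference between the groups and says little about the order of libraries within a group.

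Keratin filaments are fixed to desmosomes and to each other by plakins and desmosomal proteins. The list of 17 genes held these and other keratin-binding genes, TCHP, FAM83H, TRADD and SFN among them. Of these 17 genes 16 were tested, and 2 rose while 0 fell by limma, with a median log2 change of 0.14. Before adjustment, 5 were higher and 0 lower with limma p under 0.05, FAM83H and TRADD among the higher. The counts of this and the following lists stand beside shares of 3.69% higher and 4.77% lower over all tested genes, and beside 4036 of 14475 genes at an unadjusted p under 0.05. DSC2, a desmosomal cadherin gene, rose (14.2 ± 1.20 to 18.6 ± 0.575 FPKM, log2 0.37, limma adjusted p = 0.0376). EVPL, which encodes the plakin envoplakin, rose as well (10.7 ± 1.41 to 14.5 ± 0.517 FPKM, log2 0.42, limma adjusted p = 0.044). Of 15 other intermediate filament genes 8 were tested. LMNB1, which encodes the nuclear lamin B1 (57.7 to 70.3 FPKM, log2 0.28), and DES, the muscle filament gene (1.28 to 2.52 FPKM, log2 0.62), rose, and NES, the gene of the progenitor filament nestin, fell (6.30 to 4.34 FPKM, log2 -0.45), with limma adjusted p of 0.0416, 0.025 and 0.0225. VIM, the mesenchymal filament gene, stayed under 1 FPKM in all 6 libraries.

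The list of transcription factors that act in epithelia, which also holds the widely expressed AP-1 and C/EBP factors, had calls in both directions. Of 24 tested from a list of 29, 4 were called higher and 2 lower, where 3.69% and 4.77% of all tested genes were, and the median log2 change was 0.07. Of the 4 called higher, JUN, JUNB and CEBPB are such widely expressed factors, and the fourth, OVOL2, entered the fit only through its treated libraries, so its call is no support. ELF3, an epithelial ETS factor, fell from 91.9 ± 5.18 to 60.7 ± 4.25 FPKM (log2 -0.59, limma adjusted p = 0.00612). Its relative EHF fell from 7.18 to 4.37 FPKM (log2 -0.61, adjusted p = 0.0268). The AP-1 subunit gene JUN rose from 9.47 to 13.6 FPKM (log2 0.48, limma adjusted p = 0.0212). The zinc finger gene OVOL2 was at 0.802, 0.641 and 0.713 FPKM without doxycycline and at 1.83, 1.59 and 1.44 FPKM with it, given without a test. CEBPB (19.9 to 28.0 FPKM, log2 0.47) and JUNB (57.5 to 77.3 FPKM, log2 0.42) rose as well (limma adjusted p = 0.0292 and 0.043) and were named after their values were seen. CDX2, the intestinal homeobox factor, was at 4.52 and 5.42 FPKM (limma adjusted p = 0.264).

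Markers of basal and squamous epithelium, the tissue in which KRT15 is best known, gave no call in the upward direction. Of 22 such genes 9 were tested, 0 rose and 2 fell by limma, and at an unadjusted p under 0.05 the counts were 2 higher and 2 lower, where 4036 of the 14475 tested genes lay under that p in either direction. Those that fell were S100A2 (23.4 to 15.5 FPKM, log2 -0.59), a calcium-binding protein of basal cells, and CNFN (3.87 to 2.23 FPKM, log2 -0.58), a cornified envelope protein. Of 8 pan-epithelial markers EPCAM rose (190 ± 8.12 to 241 ± 20.0 FPKM, log2 0.34, limma adjusted p = 0.0401). Of 3 tested colonic markers EPHB2, a receptor of the crypt base, fell (9.64 to 7.09 FPKM, log2 -0.39, adjusted p = 0.0384). In the lists of other cell types CD68, a lysosomal glycoprotein also used as a macrophage marker, fell from 3.94 to 2.01 FPKM (log2 -0.72, adjusted p = 0.0167), while COL1A1 was at 9.06 and 8.37 FPKM (adjusted p = 0.688).

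Many of these list calls depended on single libraries or settings. Of the 16 genes called in the lists other than the keratins, OVOL2 included, ELF3 was still called whichever of the 6 libraries was dropped, and CD68 in 4 of these fits. Dropping untreated replicate 1 cost 11 calls, replicate 2 cost 15 and replicate 3 cost 12. Among the treated libraries, dropping replicate 1 cost 13 calls, replicate 2 cost 14 and replicate 3 cost 7. With libraries scaled to equal totals LMNB1, DSC2 and EVPL missed the threshold. With no filter on low values ELF3 alone of the 16 was called.

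**Figure D4:**
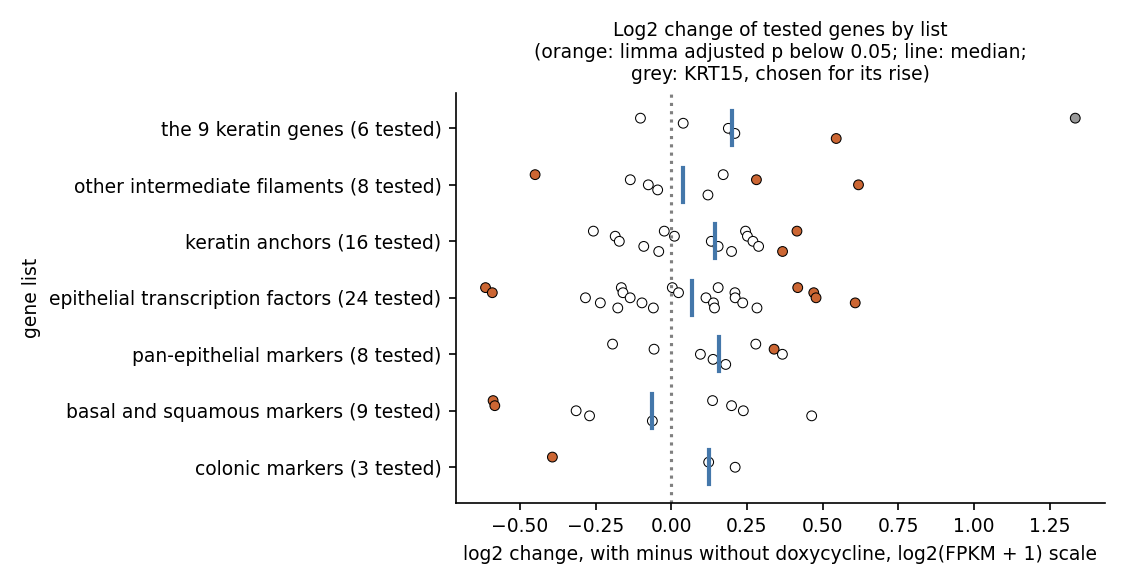
Log2 change with minus without doxycycline for every tested gene of 7 lists, a point per gene, filled orange where the limma adjusted p was below 0.05, grey for KRT15 and with a line at the list median, which for the keratins includes KRT15. KRT15 lies apart at 1.33, and every other gene shown lies between -0.61 and 0.62.

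**Figure D5:**
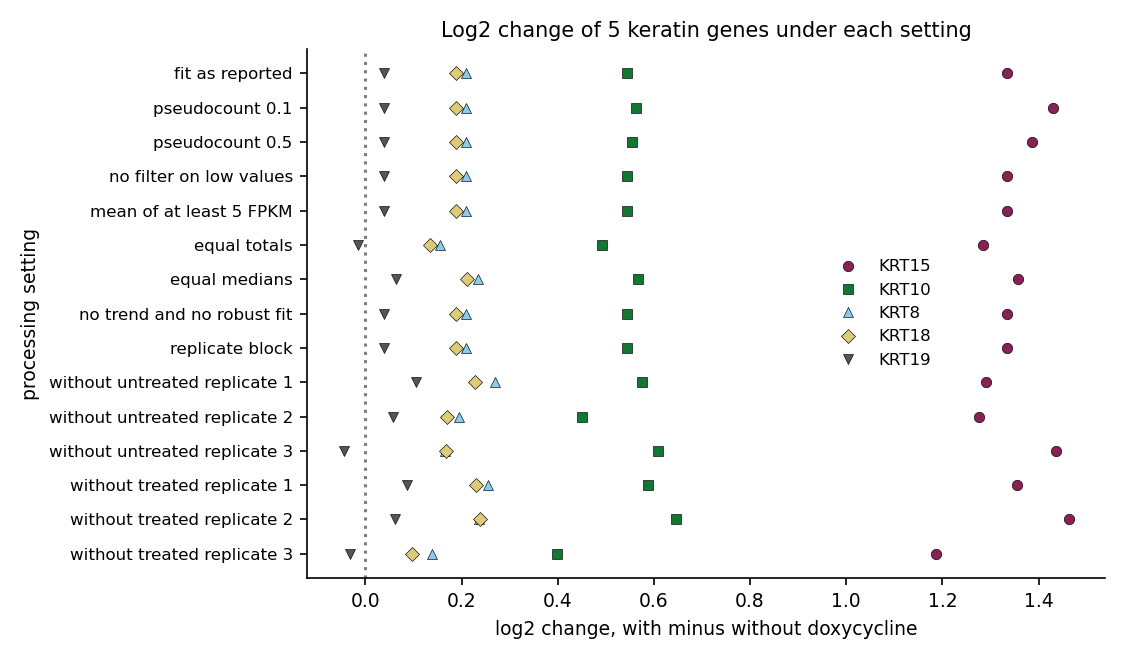
Log2 change of KRT15, KRT10, KRT8, KRT18 and KRT19 (horizontal axis) under the fit as reported and 14 alternative settings (vertical axis). KRT15, chosen for its rise, stays between 1.19 and 1.46 and KRT10 between 0.40 and 0.65, while KRT19 crosses 0 in 3 settings.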

How the data were processed

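The authors deposited 1 table with a value per gene and library for 6 libraries. The header names no unit; the deposited values were treated as FPKM because they are not whole and do not sum to a fixed total. Per the submitters' processing notes, the tools were Bowtie, BWA, STAR, Cufflinks, RSEM and kallisto and the build hg19; what each tool did is not stated. The loci in the table were those of GRCh38 instead: of 39331 identifiers found in GENCODE 29, 39321 had its locus once 1 was added to the start. No source used here gives the read length or strandedness.

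The fit took the 14475 genes that reached 1 FPKM in 3 or more libraries, on log2(FPKM + 1), which understates changes of low genes, with limma 3.58.1 in R 4.3.3 (trended, robust empirical Bayes; treatment was the single factor). Two-sided p-values were Benjamini-Hochberg adjusted across all of these genes, and 0.05 was the threshold. In simulated data with 200 of 14475 genes changed, the fit recovered 7.2% of 1.25-fold changes, 52.4% of 1.5-fold, 86% of 2-fold and 98.4% of 4-fold ones. Small changes can therefore go uncalled. The share of changed genes in the real libraries may differ, so these rates need not hold there. Depth was estimated from 3644 single-exon genes over 1000 bases; limits of 3 fragments cover counting error only. Shared stretches were searched in GENCODE 29 transcripts.

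The members and lists were chosen with earlier results of these data known. Named genes were the members, CAPG, tested keratins, up to 4 called genes per list, pseudogenes reaching 1 FPKM, tested neighbours within 100 kb, and the 3 profiles most like KRT15. Alternatives covered pseudocounts, filters, scaling, the empirical Bayes fit, a replicate block and each library left out.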

Additional observations from a re-analysis of the deposited data

How the results depend on the processing

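CAPG kept its direction under all 14 alternatives, with a log2 change between -2.68 and -2.53 when a library was left out. The log2 change of KRT15 lay between 1.19 and 1.46 under these alternatives. They reuse the libraries on which KRT15 was chosen, so its kept direction follows from that choice. The keratin genes called higher, among which KRT15 was chosen for its rise and counts as no evidence, numbered 1 in place of 2 with no filter on low values, with no trend and no robust fit, and with the replicate block, in each case because KRT10 was lost (limma adjusted p = 0.172, 0.0674 and 0.0537). They numbered 1 to 2 in the fits that left out a library, and those called lower 0 throughout. Over all tested genes 534 were called higher and 691 lower. The counts were 53 and 100 with no filter (32367 genes tested), 354 higher with no trend and no robust fit, and 76 to 412 higher and 147 to 588 lower with a library left out. Replicate numbers did not pair the libraries: same-numbered libraries had correlations of deviations from the group means of -0.0433, 0.00936 and -0.0231. A replicate block left 69 higher and 142 lower calls, and ELF3 alone of the 16 other list genes. The log2 change of KRT19 turned to -0.015 with equal totals, -0.045 without untreated replicate 3 and -0.032 without treated replicate 3 (-0.045 to 0.11 over the libraries left out). That of COL1A1 turned to 0.028 without untreated replicate 1 (-0.20 to 0.028). Equal totals made 33.9% of calls higher ones and equal medians 51.7%, against 43.6%. Without KRT18 and KRT8 the type I to type II ratio was 233 and 242, since KRT7 and KRT80 alone remain as type II. With libraries left out it was 1.47 to 1.49 without doxycycline and 1.41 to 1.44 with it. Adding pseudogenes put KRT8 at 712 and 824 FPKM. For these shifts the cause was not tested beyond the gene and library numbers given. KRT7, KRT20 and KRT80 have no alternatives because they entered no fit but the unfiltered one.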
